A study of Mus musculus with 6 samples.

Results

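The genes described here are the secreted and cell-surface components of Wnt signalling, with the intracellular Axins, in the aorta of apoE-/- mice. They were taken as every probe set whose single platform gene symbol named a Wnt ligand, a Frizzled receptor (Fzd), a secreted Frizzled-related protein (Sfrp or Frzb), a Dickkopf protein (Dkk), Wif1, Lrp5, Lrp6, Axin1, Axin2, Lgr4 to Lgr6, or one of Rspo1 to Rspo4. The rule found 97 of the 45101 probe sets of the array, covering 51 of 18193 named genes. Fzd10os, a transcript opposite to Fzd10 and not a receptor, was caught by the pattern and is kept apart. Total RNA of aortas was profiled on 3 arrays from apoE-/- mice on the C57BL/6J background, which lack apolipoprotein E and develop high plasma cholesterol and atherosclerotic plaques, and on 3 arrays from wild-type C57BL/6J mice. All mice were 32 weeks old. The labels do not say whether a replicate was 1 animal or a pool, so p-values measure the spread between these arrays, which may be technical.

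Wnt proteins are secreted, lipid-modified signals that bind a Frizzled receptor together with the co-receptors Lrp5 or Lrp6. Binding halts the complex, built on the scaffold protein Axin, that otherwise marks beta-catenin for destruction. R-spondins, through the Lgr receptors, keep Frizzled receptors on the cell surface, whereas the Sfrp proteins, Frzb and Wif1 bind Wnt proteins outside the cell, and Dkk1 and Dkk2 bind the Lrp co-receptors. In the vessel wall the pathway is known for roles in smooth muscle growth and in calcification.

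Values are array intensities as deposited, in units scaled by the authors to one level per array. Changes are differences of log2(intensity + 16), apoE-/- minus wild type. They were tested with limma and adjusted by the Benjamini-Hochberg method over 13052 genes, and a gene is said to be called at an adjusted p under 0.05. As checks of the material, Apoe read 239.5, 56.3 and 462.1 units in apoE-/- aorta and 5686, 5625 and 4309 units in wild type, which matches the labels. The smooth muscle markers Myh11, Acta2 and Tagln were bright on all 6 arrays, and none of 8 smooth muscle markers was called. All 8 had a negative log2 change (median -0.15), and in 3 of them, Smtn (-0.33), Myocd (-0.52) and Lmod1 (-0.39), every apoE-/- array lay below the wild-type arrays. Over all genes tested, 1789 of 13052 were apart and lower in apoE-/-. The sum of the 8 smooth muscle markers was 50639 to 62071 units in apoE-/- and 57018 to 66212 units in wild type. Of 7 endothelial markers 1 was called (median 0.28). The sum of 7 skeletal muscle markers was 1190 to 1371 units in apoE-/- and 2468, 2534 and 22285 units in wild type, where replicate 3 stood apart as the highest (1 called, median -2.31). Adipocyte markers (0 of 4 called, median -0.33) and peripheral nerve markers (0 of 2, median 0.15) held no call. On the first principal component apoE-/- replicate 2 (-12.6) lay nearer to the wild-type arrays (26.0 to 36.3) than the other apoE-/- arrays did (-48.4 and -34.7). Array medians lay between 178 and 195.5 units. Control probe sets for beta-actin gave 3′ over 5′ signal ratios of 1.15 to 1.16 in apoE-/- and 1.16 to 1.21 in wild type, without overlap, and those for Gapdh gave 0.705 to 0.816 in apoE-/- and 0.736 to 0.775 in wild type, with overlap. The part of the beta-actin difference in the results was not tested.

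Among these genes only secreted antagonists passed the test, and both that did were higher in apoE-/- aorta. Frzb rose about 3.08-fold and Sfrp1 1.63-fold as ratios of mean intensity, and in whole aorta more cells that make a transcript cannot be told apart from more RNA per cell. No ligand, R-spondin, Frizzled, Lgr, Lrp or Axin gene passed. Of the 51 genes, 36 had a probe set above the filter, which left out the dimmest 40% of probe sets by their mean over all 6 arrays (124 units or less), and 15 did not. Of the 36 genes tested, 2 rose (5.56%) and none fell, while 7 had an unadjusted p under 0.05 (19.4% against 18.4% of all genes). Over all genes tested, 3.65% were called, 3.19% as higher and 0.467% as lower in apoE-/- aorta. The share of called genes in the family was thus near the background, and the calls lay in 1 role, the secreted antagonists, where 2 of 7 genes tested were called. The family's median log2 change was -0.18, with 26 of 36 negative (23 of 36 after median centring), against -0.05 and 7673 of 13052 negative over all genes tested.

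**Figure D1:**
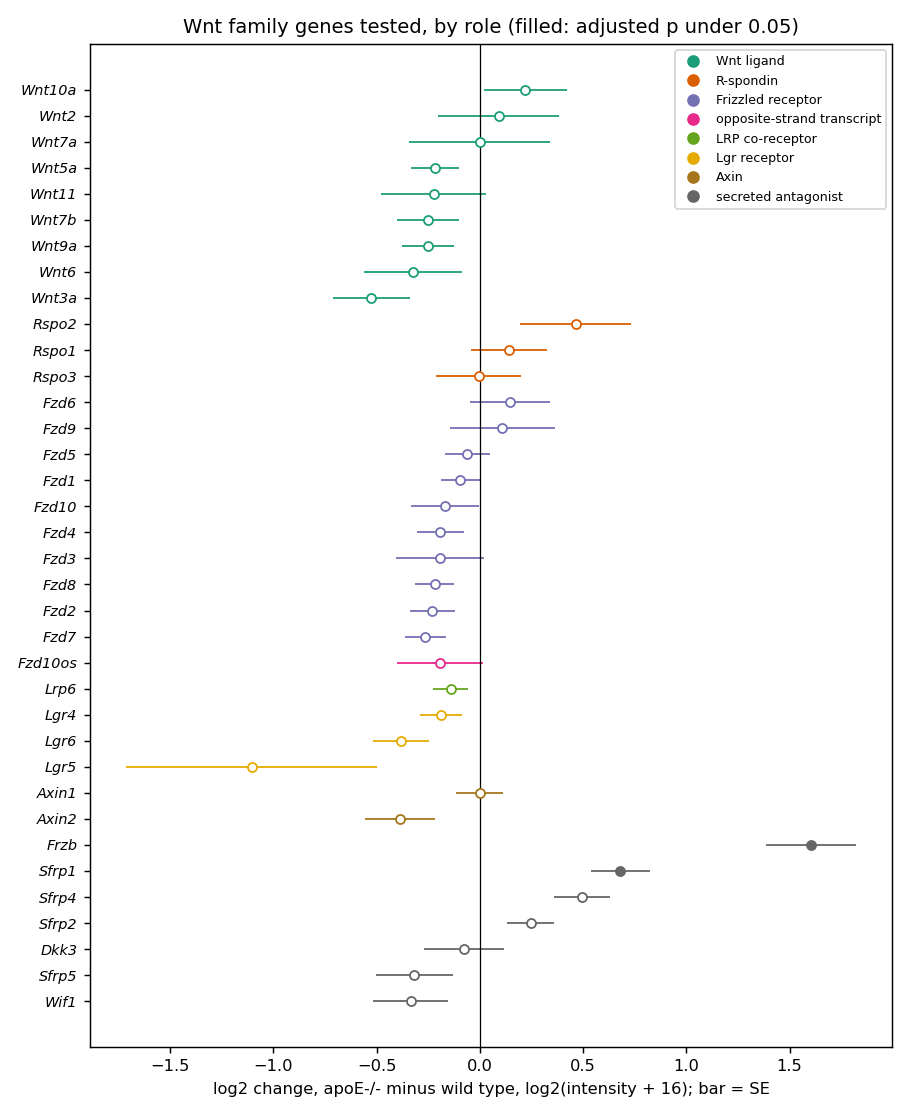
Log2 change (apoE-/- minus wild type, horizontal axis, with SE) of the 36 family genes tested, grouped by role, with filled points for an adjusted p under 0.05. Only Frzb and Sfrp1 are filled, and 26 points lie left of 0.

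The proximal promoters of the family gene with the smallest p, Frzb, and of Dkk2, a dim antagonist described below, are shown to give the sequence context of these genes. The promoter set used held no sequence for Sfrp1, the other called gene, and Dkk2 was chosen after its values were seen. Both promoters shown are RefSeq sequences of GRCm38.p6, from 250 bases before the gene start to 50 bases after it, read along the gene. Frzb lies on the minus strand at chr2:80447347-80447646 and Dkk2 on the plus strand at chr3:132085042-132085341. Capitals mark matches, on either strand, to the GC box GGGCGG and the TATA motif TATAAA, which did not overlap each other.
Frzb: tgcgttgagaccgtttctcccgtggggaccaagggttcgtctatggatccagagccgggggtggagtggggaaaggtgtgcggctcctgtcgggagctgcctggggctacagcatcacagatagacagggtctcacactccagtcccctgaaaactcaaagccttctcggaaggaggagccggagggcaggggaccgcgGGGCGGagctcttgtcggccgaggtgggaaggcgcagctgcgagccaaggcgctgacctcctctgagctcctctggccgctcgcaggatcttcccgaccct
Dkk2: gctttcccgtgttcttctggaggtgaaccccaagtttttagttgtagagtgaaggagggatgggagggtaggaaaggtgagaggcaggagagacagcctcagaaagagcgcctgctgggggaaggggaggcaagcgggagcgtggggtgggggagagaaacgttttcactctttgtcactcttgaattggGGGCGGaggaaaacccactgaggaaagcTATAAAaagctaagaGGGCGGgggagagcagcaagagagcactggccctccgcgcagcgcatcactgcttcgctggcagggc
The Frzb sequence held 1 GC box match, 51 bases before the start, and no TATA match. The Dkk2 sequence held 2 GC box matches and a TATA match 32 bases before the start. Neither held CTTTGAT, a core motif of TCF/LEF factors, which carry the beta-catenin signal to genes. Of 32851 promoter sequences of this length, 35.7% held the GC box, 13.6% the TATA motif and 3.73% the TCF/LEF motif. These matches describe letters only.

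Frzb (also called Sfrp3) was first described as a factor of cartilage, and its product binds Wnt proteins. It read 5764, 3432 and 4076 units on the apoE-/- arrays and 1393, 1114 and 1804 units on the wild-type arrays. The lowest apoE-/- array was well above the highest wild-type array. The log2 change was 1.60 ± 0.22 (SE, limma adjusted p = 0.00612), from means of 4424 ± 1205 units in apoE-/- and 1437 ± 347 units in wild type (SD, n = 3 each). A further Frzb probe set, 1448424_at, read 2387, 1452 and 1772 units in apoE-/- aorta and 307.5, 429.4 and 395.8 units in wild type. Its groups were also apart, and its log2 change was larger, at 2.24 ± 0.19 (SE, adjusted p = 9.57e-04 in a limma fit of each probe set on its own, where 3.12% of 22729 probe sets were called). Frzb was called under all 16 gene-level alternatives run, including the removal of each array in turn.

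Sfrp1, which binds Wnt proteins through a domain shared with the Frizzled receptors, was measured by 5 probe sets, all brighter in apoE-/- aorta on average. The probe set of highest mean, 1428136_at, read 3373, 2728 and 4107 units in apoE-/- and 2233, 1993 and 2049 units in wild type. The 3 apoE-/- arrays all lay above the wild-type arrays, by 0.68 ± 0.14 in log2 (SE, limma adjusted p = 0.0386). Probe set 1416594_at read 322.1, 435.1 and 432.9 units in apoE-/- and 49.4, 51.7 and 45.8 units in wild type. It passed the filter through its apoE-/- readings alone. Nothing in the table shows its wild-type readings to exceed background, so no size or p-value of its difference is given. It enters only the count of called probe sets given below, and no conclusion is drawn from its call. Probe set 1438620_x_at gave 569.5, 566.4 and 658.3 units in apoE-/- and 289.4, 264.1 and 307.6 units in wild type (log2 change 1.02, adjusted p = 0.00454). The remaining 2 probe sets were not called. Their log2 changes were 0.79 for 1448395_at (adjusted p = 0.0761), whose groups did not overlap, and 0.56 for 1460187_at (adjusted p = 0.226), whose groups did. Over the 4 probe sets with both genotype means above the filter, the ratio of means ran from 1.49-fold to 2.08-fold, and the table does not say which transcripts each probe set detects. The gene-level call of Sfrp1 was lost without any 1 of 5 arrays (limma adjusted p = 0.0881 to 0.138), that is, every array except apoE-/- replicate 2. It was also lost with the median of its probe sets, where the log2 change was 0.79 (adjusted p = 0.0755).

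**Figure D2:**
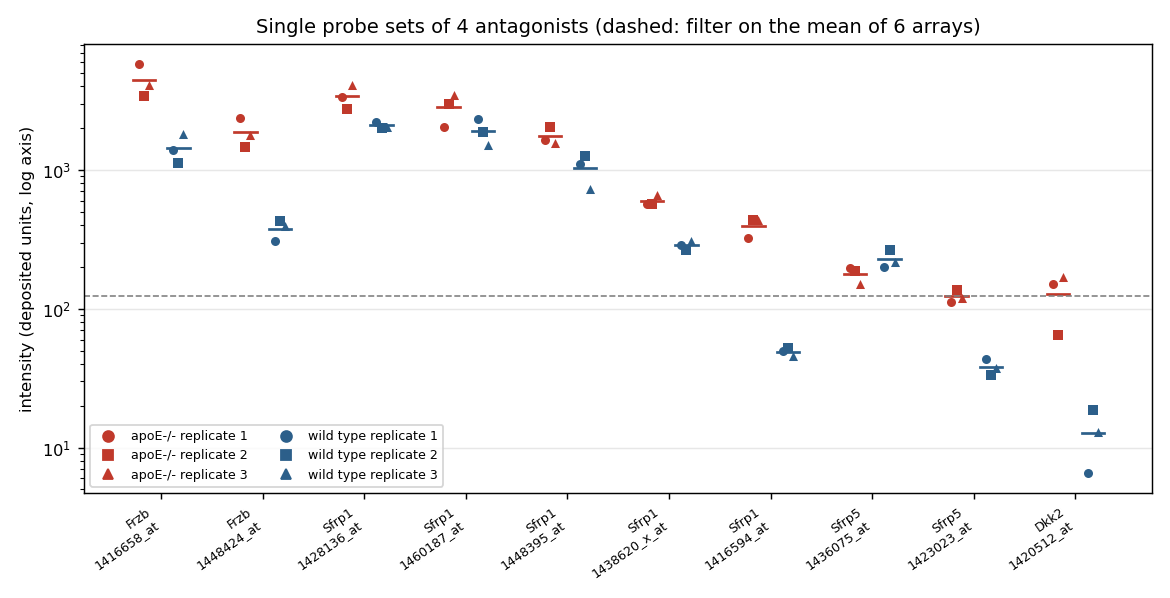
Intensity (log axis) on each array for every probe set of Frzb, Sfrp1, Sfrp5 and Dkk2, with apoE-/- left of wild type, a line at each mean and a dashed line at the filter of 124 units. Both Frzb probe sets are apart between genotypes, 4 Sfrp1 probe sets lie above the dashed line in both genotypes while on the dimmest the wild-type arrays lie below it, and the 2 Sfrp5 probe sets differ in sign.

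The other Frizzled-related proteins did not pass. Sfrp4 read 5107, 3952 and 4958 units in apoE-/- aorta and 3698, 3430 and 2799 units in wild type. Its groups did not overlap, and the log2 change was 0.50 ± 0.14 (SE, limma adjusted p = 0.0992). It was called without apoE-/- replicate 2 (adjusted p = 0.0415) and in none of the other 15 alternatives. Sfrp2 had groups that did not overlap but only just, with 10148, 8402 and 7674 units in apoE-/- and 7656, 6923 and 7408 units in wild type (log2 change 0.25 ± 0.11, adjusted p = 0.295).

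Sfrp5 gave opposite readings on its 2 probe sets. The brighter, 1436075_at, read 198.2, 188.2 and 151.2 units in apoE-/- and 201.1, 265.2 and 215.7 units in wild type (log2 change -0.32 ± 0.19, SE, limma adjusted p = 0.416). The dimmer, 1423023_at, was below the filter and read 111.7, 136.9 and 119 units in apoE-/- against 43.7, 33.2 and 37.6 units in wild type, with a log2 change of 1.36 (adjusted p = 0.0327 in a fit of all probe sets with no filter, where 1.55% of 34945 were called). The wild-type readings of the dimmer probe set are not shown to be above background. Both pairs of groups were free of overlap, in opposite directions, so no direction is given for Sfrp5.

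Among the Dickkopf proteins, Dkk2 stood apart but below the filter. Its probe set read 150.3, 64.5 and 169.1 units in apoE-/- aorta and 6.6, 18.6 and 12.9 units in wild type. All 3 apoE-/- arrays were above the wild-type arrays, whose values are not shown to be above background, because the table holds no detection calls. Fitted with no filter, Dkk2 and Frzb were the called genes among all 51 of the family (Dkk2 log2 change 2.26 ± 0.36, SE, limma adjusted p = 0.0248 over 18193 genes, of which 2.02% were called), and Sfrp1 was not (adjusted p = 0.0618). Dkk1, also below the filter, read 79.2, 100 and 40.6 units in apoE-/- and 100.6, 146.7 and 111.8 units in wild type on its brighter probe set, with apoE-/- below wild type on every array. Its log2 change of -0.65 was not called without the filter (adjusted p = 0.427 in the unfiltered probe-set fit). Dkk3, a divergent member of the Dickkopf family, read 6115, 5085 and 3380 units in apoE-/- and 5436, 4497 and 5045 units in wild type, with full overlap (log2 change -0.08 ± 0.20, adjusted p = 0.872). Wif1, which binds Wnt proteins, overlapped as well, at 735 to 1159 units in apoE-/- and 1103 to 1380 units in wild type (log2 change -0.33 ± 0.18, adjusted p = 0.369). Dkk4 was near the bottom of the scale, at 13.3 to 39.8 units in apoE-/- and 11 to 37.1 units in wild type.

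**Figure D3:**
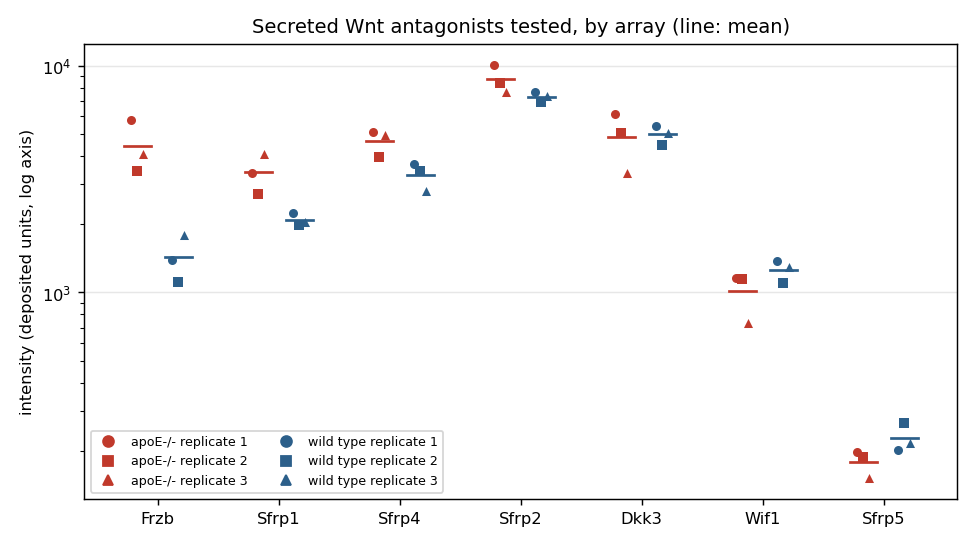
Intensity (log axis) on each array for the 7 secreted antagonists tested, each by its probe set of highest mean, with apoE-/- left of wild type and a line at each mean. Groups are apart and higher in apoE-/- for Frzb, Sfrp1, Sfrp4 and Sfrp2, apart and lower for Sfrp5, and overlapping for Dkk3 and Wif1.

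Over the 7 antagonists tested, groups did not overlap in 5, of which 4 were higher and 1 lower in apoE-/-. The lower one was Sfrp5 on its brighter probe set, and its dimmer probe set went the other way. Over the whole family groups did not overlap in 12 of 36 (33.3%), 4 higher and 8 lower. The share over all genes tested was 24.7%, with 1440 higher and 1789 lower of 13052. The median log2 change of the antagonists was 0.25, the highest of the roles described here. Several cell type markers moved with the same contrast. The summed intensity of 8 macrophage markers, 7 of them called higher, was 26415 to 38773 units in apoE-/- and 12215 to 13400 units in wild type. That of 6 adventitial fibroblast markers (median log2 change 0.21), of which only Lum was called, was 43699 to 54858 units in apoE-/- and 37009 to 38627 units in wild type. Groups did not overlap in Lum (means 10438 against 5082 units) and Col1a1 (8448 against 5668 units). They overlapped in Pdgfra, Dcn, Cd34 and Pi16, and Pi16 had a log2 change of -0.01. For 5 chondrocyte markers, 3 of them called (Col2a1, Chad and Sox9), the sum was 9663, 5481 and 3027 units on the apoE-/- arrays and 1907 to 2160 units on the wild-type arrays. Col2a1 and Chad passed the filter through their apoE-/- readings alone (wild-type means 89.2 and 21.3 units). Chad read 1574, 199.5 and 204.8 units in apoE-/-. The macrophage markers Trem2 and Itgam also passed through apoE-/- alone (wild-type means 27.2 and 122.8 units). Within apoE-/- aorta Frzb and the macrophage, fibroblast and adipocyte sums had the same order, highest on replicate 1 and lowest on replicate 2. The adipocyte markers had a negative median log2 change (-0.33). The chondrocyte and smooth muscle sums were highest on replicate 1 and lowest on replicate 3. Sfrp1 was highest on replicate 3 and lowest on replicate 2. The endothelial sum was also highest on replicate 3 (13395 units) but lowest on replicate 1 (10832 units). No tested marker of these lists was listed at 0, and their part in the antagonist results was not tested.

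None of the 9 Wnt ligands tested passed, and 7 had a negative log2 change (median -0.22, against -0.05 over all genes tested). Wnt3a, which signals through beta-catenin, had the smallest p. It read 240.1, 163.3 and 180.6 units in apoE-/- aorta and 284.6, 313 and 256.2 units in wild type. The groups did not overlap, but the log2 change of -0.53 ± 0.19 was not called (SE, limma adjusted p = 0.182). Wnt9a also had lower readings on each apoE-/- array, at 333.5 to 396.9 units against 414 to 446.1 units in wild type (log2 change -0.25 ± 0.13, adjusted p = 0.33). Wnt5a, known for signalling without beta-catenin, was negative on all 4 probe sets. Its brightest read 660.1, 822.9 and 708 units in apoE-/- and 889.9, 805.5 and 851.5 units in wild type, overlapping at apoE-/- replicate 2 (log2 change -0.22 ± 0.11, adjusted p = 0.359). The other ligands tested, Wnt2, Wnt6, Wnt7a, Wnt7b, Wnt10a and Wnt11, had overlapping groups and log2 changes between -0.32 (Wnt6) and 0.22 (Wnt10a).

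The other 10 ligands, Wnt1, Wnt2b, Wnt3, Wnt4, Wnt5b, Wnt8a, Wnt8b, Wnt9b, Wnt10b and Wnt16, had every probe set below the filter. With Lrp5, Rspo4, Dkk1, Dkk2 and Dkk4 they made up the 15 genes not tested, whose 21 probe sets read 3.6 to 202.4 units on single arrays. Groups were apart on 4 of these 21 probe sets: those of Dkk2, Wnt3, the brighter Dkk1 and 1 of the 3 of Wnt8b. That is near the background, since groups were apart on 14.0% of the 12216 probe sets with 1 symbol that the filter left out. Wnt3 read 28.6, 18.8 and 21.9 units in apoE-/- and 3.7, 4.9 and 3.6 units in wild type. Although every apoE-/- array was higher, both groups sat at the low end of the scale (log2 change 0.96 ± 0.19, SE, limma adjusted p = 0.0523 with no filter over genes, and 0.0453 over all probe sets).

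R-spondins, which amplify Wnt signals, showed no call. Of the 3 tested, Rspo2 had the smallest p. It read 115.2, 138.3 and 189.7 units in apoE-/- and 125.4, 77.7 and 103.9 units in wild type, with overlap (log2 change 0.46 ± 0.27, SE, limma adjusted p = 0.404). A dimmer Rspo2 probe set had a log2 change of -0.63. Rspo1 and Rspo3 overlapped too, with log2 changes of 0.14 and -0.01, and that of Rspo3 was positive after quantile normalization and median centring.

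All 10 Frizzled receptors were above the filter and none was called. The log2 change was negative in 8 of 10 (median -0.18), against 7673 of 13052 genes tested (median -0.05). Fzd1, Fzd3, Fzd5 and Fzd6 had probe sets of mixed sign. Fzd7 read 2550, 3048 and 2499 units in apoE-/- aorta and 3127, 3264 and 3315 units in wild type. Its groups were apart by a small margin, set by apoE-/- replicate 2 (log2 change -0.27 ± 0.10, SE, limma adjusted p = 0.206). Fzd8 read 780.1, 754.8 and 764.7 units in apoE-/- and 904.6, 844.7 and 938.7 units in wild type, again without overlap (log2 change -0.22 ± 0.10, adjusted p = 0.271). In Fzd2 and Fzd4 all 3 probe sets of each were negative. The largest of these differences was that of a dim Fzd4 probe set, 1449416_at, with a log2 change of -0.53 (limma adjusted p = 0.234 in the probe-set fit). The smallest p was that of a brighter Fzd2 probe set, 1418532_at, whose groups did not overlap (log2 change -0.37, limma adjusted p = 0.141). The other Fzd2 probe sets had overlapping groups. Fzd6 and Fzd9 had positive log2 changes of 0.14 and 0.11 with overlap. The rest, Fzd1, Fzd3, Fzd5 and Fzd10, lay between -0.19 and -0.06, and the opposite-strand transcript Fzd10os at -0.19 ± 0.21 (adjusted p = 0.667). The 8 smooth muscle markers described above were also negative, and their part in the negative changes of ligands, Frizzled and Lgr receptors was not tested.

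**Figure D4:**
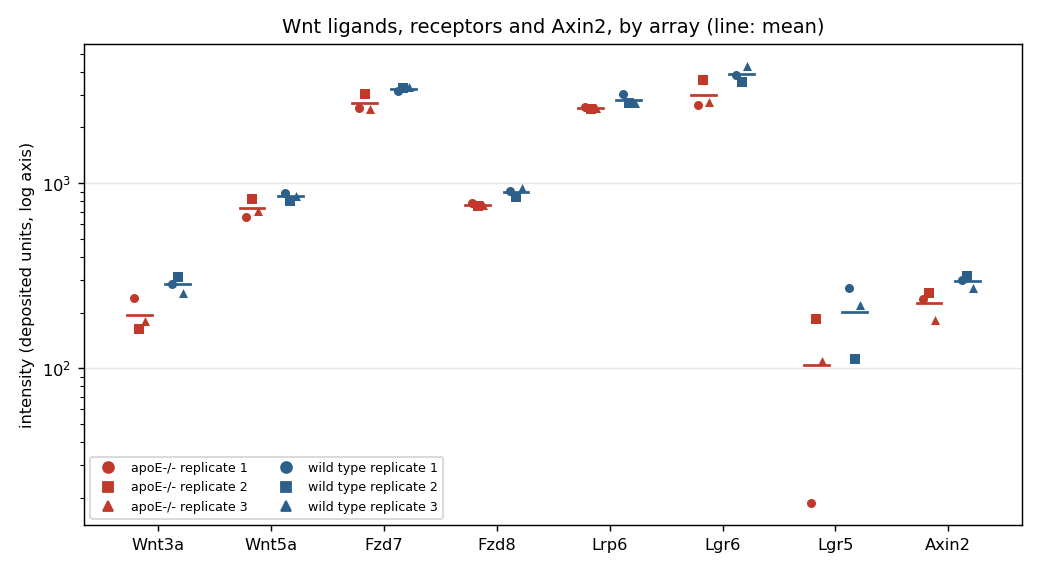
Intensity (log axis) on each array for Wnt3a, Wnt5a, Fzd7, Fzd8, Lrp6, Lgr6, Lgr5 and Axin2, each by its probe set of highest mean, with apoE-/- left of wild type and a line at each mean. Every apoE-/- mean is below its wild-type mean, but none of these genes passed the test and the Wnt5a, Lgr6 and Lgr5 groups overlap.

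The co-receptor Lrp6 read 2568, 2501 and 2550 units in apoE-/- and 3024, 2695 and 2706 units in wild type. Every apoE-/- array was lower, but the log2 change was small and not called (-0.14 ± 0.08, SE, limma adjusted p = 0.421), and a dim Lrp6 probe set had a log2 change of 0.08. The Lgr receptors, to which R-spondins bind, were all negative. Lgr6 read 2636, 3588 and 2751 units in apoE-/- aorta and 3853, 3497 and 4302 units in wild type. Replicate 2 of apoE-/- lay inside the wild-type range, and the log2 change was -0.38 ± 0.13 (adjusted p = 0.179). Without that array Lgr6 was called, with a log2 change of -0.52 (adjusted p = 0.0434), and in the other 15 alternatives it was not. A further Lgr6 probe set, 1427028_at, had groups that did not overlap (log2 change -0.46, adjusted p = 0.173 in the probe-set fit). Lgr4 was lower on every apoE-/- array, at 1056 to 1274 units against 1314 to 1417 units in wild type (log2 change -0.19 ± 0.10, adjusted p = 0.376). Lgr5 had the largest SE of the 36 genes tested, with 18.7, 183.5 and 109.7 units in apoE-/- and 272.3, 111.6 and 220 units in wild type, and apoE-/- replicate 1 was by far its lowest reading (log2 change -1.11 ± 0.61, adjusted p = 0.376).

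Axin2, whose transcription is itself raised by beta-catenin in many cell types, read 235.2, 254.7 and 182.2 units in apoE-/- and 299.2, 315.1 and 272 units in wild type. The groups were apart, with apoE-/- lower, but the log2 change of -0.39 ± 0.17 was not called (SE, limma adjusted p = 0.275). Axin1, the constitutive scaffold, had a log2 change of 0.00 ± 0.11 on its brighter probe set, with overlap, and of -0.46 on its dimmer one, where groups did not overlap (adjusted p = 0.267 in the probe-set fit). Of the 32 family genes with several probe sets, all probe sets were negative in 19, all were positive in 2, Frzb and Sfrp1, and signs were mixed in 11. These counts take in probe sets below the filter and very small changes. The same count was not made over all genes, of which 7673 of 13052 tested were negative.

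Other genes of the pathway were read from 4 lists. Extracellular and membrane modulators held no call among 14 tested of 19 listed (median log2 change -0.13, 2 positive). The smallest p was that of Sost, the Lrp-binding antagonist sclerostin, with 4642, 6043 and 5078 units in apoE-/- and 6696, 7996 and 8013 units in wild type. Sost was below every wild-type array in all 3 apoE-/- arrays and just missed the threshold (log2 change -0.53 ± 0.12, SE, limma adjusted p = 0.0528). It was called without apoE-/- replicate 2, with array weights and with the stricter filter (adjusted p = 0.0233, 0.0445 and 0.0495), and in the other 13 of 16 alternatives it was not (adjusted p up to 0.399, with the median of its probe sets, where the log2 change was -0.41). The beta-catenin core held no call among 21 tested of 27 (median -0.03), where Dvl1, which relays the signal from Frizzled, had the smallest p (1846, 1642 and 1526 units in apoE-/- against 2264, 2111 and 2019 units in wild type, log2 change -0.35 ± 0.10, adjusted p = 0.113). Beta-catenin itself, Ctnnb1, had a log2 change of 0.00 ± 0.10. Planar polarity and calcium arm genes held no call among 15 tested of 18 (median -0.06). Dact3, a Dishevelled-binding inhibitor, read 1790, 3061 and 2270 units in apoE-/- and 3778, 3812 and 4345 units in wild type, wholly apart (log2 change -0.77 ± 0.18, adjusted p = 0.0522). It too was called without apoE-/- replicate 2 (adjusted p = 0.0061) and with array weights (0.0296), the stricter filter (0.0498) and median centring (0.0411), and in the other 12 of 16 it was not (adjusted p up to 0.174, and 0.171 with the median of its probe sets).

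**Figure D5:**
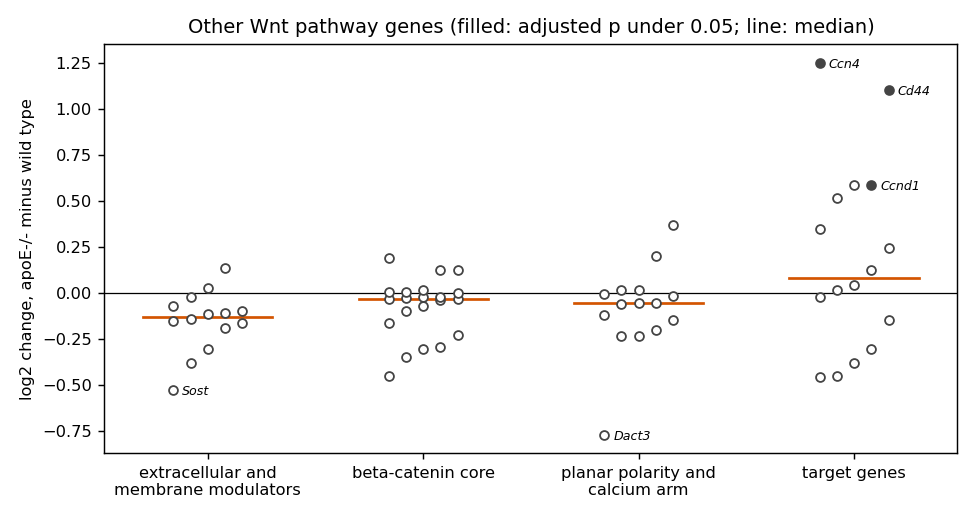
Log2 change (apoE-/- minus wild type, vertical axis) of each tested gene of 4 Wnt pathway lists, with a line at each list's median and filled points for an adjusted p under 0.05. The filled points are Ccn4, Cd44 and Ccnd1, all in the target gene list, and Sost and Dact3 lie at the bottom of their lists without a call.

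Of 20 genes listed as known beta-catenin targets 16 were tested, and 3 rose and none fell (median 0.08, 10 positive). Over all genes tested, 3.65% were called and 3.19% were called higher. The list was chosen with earlier results of these data known, so its count is descriptive. Ccn4 (also called Wisp1), a secreted matricellular protein, read 524.5, 337.5 and 424.4 units in apoE-/- and 199.7, 113.1 and 206.9 units in wild type (log2 change 1.25 ± 0.25, SE, limma adjusted p = 0.0333). Cd44, the hyaluronan receptor, which macrophages also carry, read 4601, 3091 and 4817 units in apoE-/- and 2116, 1863 and 1717 units in wild type (log2 change 1.11 ± 0.17, adjusted p = 0.0111). Cyclin D1 (Ccnd1) read 2457, 1785 and 2074 units in apoE-/- and 1438, 1404 and 1313 units in wild type (log2 change 0.59 ± 0.12, adjusted p = 0.0386). In all 3 the apoE-/- arrays lay above the wild-type arrays, and each is also known to respond to other signals. Targets that act as feedback inhibitors of the pathway were not called. Znrf3 had a log2 change of -0.38, Nkd1 of -0.46, Apcdd1 of -0.31, Notum of -0.02 and Nkd2 of 0.52. Ccn4 and Ccnd1 were not called in 7 and 9 of 16 alternatives, and Cd44 in 1, without apoE-/- replicate 1 (adjusted p = 0.0608). The macrophage sums given above moved with the same contrast, and their part was not tested.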

How the data were processed

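The authors deposited linear intensities, 1 for each probe set on each of 6 arrays. Which software and settings produced them is not given in the sources used here. Every array had a mean of 500.002 once 2% of probe sets were trimmed at each end, which shows that the authors' deposited intensities are already scaled to one level. Genes were named from the platform annotation, which can be old (34945 probe sets with 1 symbol, 932 with several, 9160 with none, after 64 control probe sets were left out). Symbols were updated through gene IDs of the GRCm38.p6 table, found for 34741 probe sets.

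Intensities were taken to log2(intensity + 16), which understates changes of dim probe sets. The dimmest 40% of probe sets by mean over all arrays were left out, each gene was read by its probe set of highest mean, and limma 3.58.1 (R 4.3.3) fitted genotype alone, with an intensity trend in eBayes. The fit was tested on simulated data with the same spread for all genes, which cannot check the intensity trend. With 3 arrays against 3, the smallest two-sided p of an exact permutation test is 0.1 and no such test was run; the number of arrays limits precision.

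The members and the gene lists were chosen with earlier results of these data known. Genes with values for each array are all called family genes, those with an unadjusted p under 0.05 or with groups apart and a log2 change of at least 0.5 either way, the gene of smallest p in each role, and up to 3 called genes, or the gene of smallest p, of each pathway list. Other genes given array by array (Sfrp2, Sfrp5, Dkk1, Dkk2, Dkk3, Wnt3, Wnt5a, Lgr5 and further probe sets), and other pathway genes named with a value, were chosen after their values were seen. The labels do not say whether replicate numbers pair the arrays. Deviations of same-numbered arrays from their group means correlated at -0.11, -0.13 and -0.04, and those of differently numbered arrays at -0.13 to 0.21. So few arrays cannot settle whether the numbers mark a pairing. Alternatives were other log offsets, scalings, filters, probe set rules and fits, a replicate block, and leaving out each array.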

Additional observations from a re-analysis of the deposited data

How the results depend on the processing

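Frzb kept its call under all 16 alternatives that test genes, with log2 changes of 1.40 to 1.92. The count of called family genes was 2. It was 1 with no intensity trend and with the median over each gene's kept probe sets, in each case Frzb. When every kept probe set was tested on its own, 5 of 58 family probe sets were called (2 of Frzb and 3 of Sfrp1). These 5 include 1416594_at, which passed the filter through apoE-/- alone, so no conclusion is drawn from its call. Leaving out an array gave 1 to 4 called family genes, with 4 (Frzb, Sfrp1, Sfrp4 and Lgr6) without apoE-/- replicate 2 and Frzb alone without any other array. The count over all genes was 477, against 297 with no intensity trend and 154 to 695 when an array was left out, namely 154, 695 and 207 without apoE-/- replicates 1, 2 and 3 and 265, 304 and 228 without wild-type replicates 1, 2 and 3. With the replicate number as a block, 1 family gene, Frzb, and 314 genes in all were called. Whether replicate numbers pair the arrays is not known, so the fit with the block is given as an alternative only. Sfrp1 was not called under 9 of these 16, among them the block (adjusted p = 0.0639) and no intensity trend (0.0899). The family median stayed negative under every alternative, from -0.18 to -0.11, with -0.11 without wild type replicate 1. Of the 36 family genes tested, 27 kept their direction under all of these alternatives that tested them. The other 9 (Axin1, Dkk3, Fzd3, Fzd5, Fzd6, Fzd9, Rspo3, Wnt2 and Wnt7a) changed sign under 1 to 6 of them, had log2 changes of at most 0.19 either way and were called under none. After median centring Axin1, Rspo3 and Wnt7a were positive, as was Notum, and Ctnnb1 was negative after quantile normalization. Sfrp4 and Lgr6 gained a call under 1 alternative each, Sost under 3 and Dact3 under 4. The table holds no detection calls, so readings of dim probe sets are not shown to be above background in wild type. Such probe sets include those of Dkk2 and Wnt3, Sfrp5 probe set 1423023_at and Sfrp1 probe set 1416594_at.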
